A study of Mus musculus with 71 samples.

Results

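The cytosolic ribosomal protein genes were examined in a SLAM-seq time course of male mouse embryonic stem cells (mESC), which follows the loss of a thiol-labelled nucleoside from messenger RNA. The genes were taken by name, as those called Rpl, Rps or Rplp followed by a number, together with Rpsa, without ribosomal S6 kinase genes and without genes named as pseudogenes. By this rule 82 of the 21527 genes in the tables were members, 50 of the large subunit and 32 of the small subunit, and 80 of them are annotated as protein coding. All groups were grown in 2i/LIF medium on gelatin, and the labels name no genetic change in any of them. Labelled libraries came from cells given 100 µM s4U for 24 h and then moved to an excess of uridine (the chase). STM2457, an inhibitor of the m6A methyltransferase Mettl3, or DMSO, in which it is dissolved, was present from 6 h before the chase until lysis. Cells were lysed after 0, 1, 1.5, 2.3, 3.5, 5.3, 8 and 12 h of chase with 4 libraries for each treatment and time, except for STM2457 at 3.5 h with 3, and 4 libraries without s4U were made for each treatment, 71 libraries in all. A single cell line was used, the inhibitor has no inactive analog in the design, and the study's methods call the replicates biological and independent.

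Each ribosome carries a single copy of nearly every ribosomal protein, and the genes for these proteins are among the most strongly expressed in growing cells. Their messenger RNAs are short and, in mammals, begin with a 5′ terminal oligopyrimidine (TOP) tract, a C followed by a run of C and T, through which mTORC1 signalling and the protein LARP1 control their translation and stability. The mouse genome holds many processed pseudogenes that were copied from these transcripts, so that a sequencing read from one gene can match several places. The study asked how long transcripts persist with and without m6A, a methylation of adenosine that promotes messenger RNA decay and is written mostly at motifs with the core GGAC.

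The annotated starts of several members that are named again below are shown first, because the tract is known as a feature of the family. Each line gives 10 bases before and 20 bases from the start in RefSeq (GRCm38.p6), on the strand of the gene, and capitals mark a run of at least 5 pyrimidines with a C in it that lies within 10 bases of the start.
Rpl27a, chr7:109519185-109519214, + strand: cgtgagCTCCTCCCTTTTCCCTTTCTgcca
Rpl13a, chr7:45128726-45128755, - strand: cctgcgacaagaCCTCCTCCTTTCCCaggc
Rps26, chr10:128626487-128626516, - strand: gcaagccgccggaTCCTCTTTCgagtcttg
Rpl38, chr11:114668570-114668599, + strand: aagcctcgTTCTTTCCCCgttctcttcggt
Rps12, chr10:23787190-23787219, - strand: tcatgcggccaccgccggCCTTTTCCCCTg
Rpl22l1, chr3:28805498-28805527, + strand: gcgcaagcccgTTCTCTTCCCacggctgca
Rpl7l1, chr17:46782637-46782666, - strand: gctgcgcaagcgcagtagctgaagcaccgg
Rpl10, chrX:74270806-74270835, + strand: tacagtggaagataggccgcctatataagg
A C followed by C or T to a total of at least 8 pyrimidines, searched on the strand of the gene and starting within 10 bases of the annotated start, was found in 25 of the 64 members with a start in the table (39.1%) and in 9.15% of 16706 other genes. The starts shown above do not reflect this share, and Rpl7l1 and Rpl10 are shown as members without such a run in this window. The libraries read 3′ ends, so none of the values below tests the start that was used in these cells.

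Counted reads ranged from 4539730 to 7368240 per library with a median of 5726510, and no pair of replicates agreed within sampling noise. The labelled cell type was checked against marker lists. Of 13 pluripotency genes 12 had a mean of at least 5 reads per 1000000 counted reads (CPM), with a summed level of 4161 to 6107 CPM over the libraries. Summed levels were 154 to 409 CPM for 8 primed or mesoderm genes, 1.15 to 14.8 CPM for 7 endoderm genes, none of which reached a mean of 5 CPM, and 4.09 to 24.1 CPM for 7 genes of fibroblast feeders. In these bulk samples fewer cells that express a gene and less RNA per cell cannot be told apart.

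Most reads on the ribosomal protein genes were placed at more than 1 position in the genome. The share of such multimapping reads (multimapping reads divided by counted reads) had a median over the 82 genes of 77.9% in DMSO and 76.8% in STM2457. Over 10698 other genes with a mean of at least 10 reads the median was 0.306%, and 4.02% of those genes had a share of at least 50%. Within the family the share covered the whole scale. It was under 10% for 14 genes, from 10 to 50% for 13, from 50 to 90% for 19 and at least 90% for 36. Rps6, the small-subunit protein phosphorylated by S6 kinases, was at 99.99% in DMSO. The 59 members with at least 1 pseudogene named after them had a median share of 92.5%, and the 20 without had a median of 51.3%, among members with at least 100 reads per library. Among members with a mean of at least 100 reads in DMSO, treatment moved the share of no gene by more than 4.76 percentage points. Summed over the family, 63.3 to 67% of reads in a library were multimapping, against 15.3 to 19.7% of the reads on all other genes. The tables do not separate the conversions of multimapping reads from those of the others, so a half-life of a gene with a high share describes the gene together with any transcribed copy. For this reason the 10 members under 10% that had a half-life in both treatments are given beside the family throughout.

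**Figure D1:**
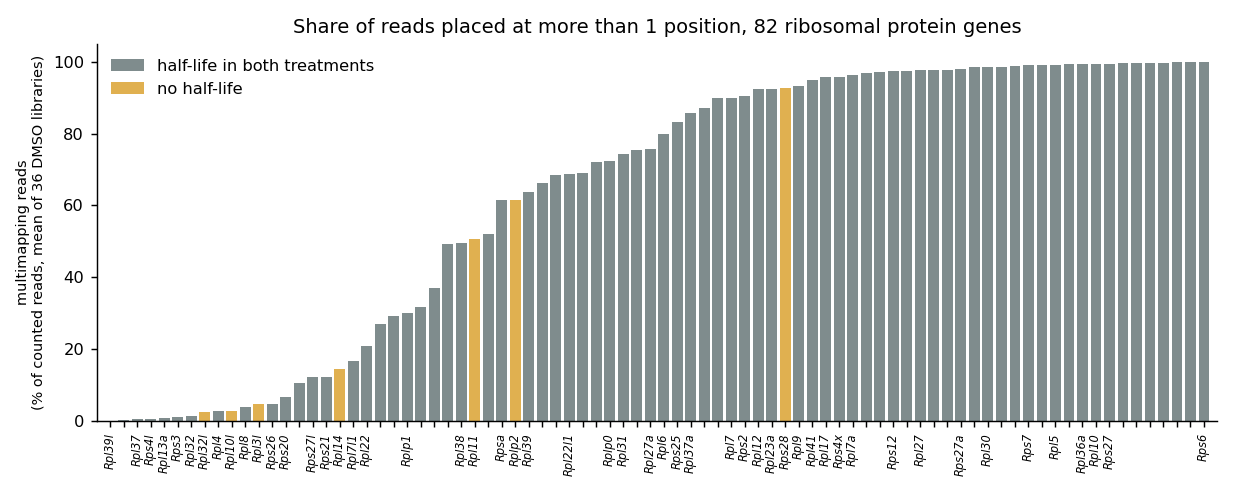
Share of counted reads placed at more than 1 position (y axis, percent, mean of the 36 DMSO libraries) for each of the 82 ribosomal protein genes, ordered by the share; yellow bars are the 8 genes without a half-life in both treatments, and genes named in the text are labelled. The genes run from 0 to nearly 100%, and 36 of them are at 90% or more.

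The family took 14.6 to 21.5% of all counted reads in a library, with a median of 17.7%, or 6.67 to 10.6% (median 8.12%) when only reads placed at 1 position were counted on either side. Of the 100 genes with the most reads in DMSO, 52 were members. The genes with the highest mean in DMSO were Rplp1, a protein of the stalk that recruits elongation factors, at 8602 ± 848 CPM (SD over 36 libraries), Rps20 at 7027 ± 752 CPM, Rpl27a at 6112 ± 802 CPM and Rpl41 at 6064 ± 1254 CPM. Reads are counted at the 3′ end, 1 fragment for a molecule, so these levels need no correction for transcript length. A total of 56 members exceeded 1000 CPM and 4 were under 50 CPM, namely Rpl10l, Rpl32l, Rpl39l and Rpl3l. Rpl3l and Rpl39l, paralogs known from striated muscle and from testis, had means of 0.455 and 1.63 CPM in DMSO and were too shallow for a conversion rate.

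A half-life could be determined in both treatments for 74 of the 82 genes, 43 of the large and 31 of the small subunit, out of 7394 transcripts in all. Ribosomal protein transcripts were long-lived. Their median half-life was 11.2 h in DMSO with an interquartile range of 9.70 to 12.7 h, against a median of 3.19 h over all transcripts, and 73 of the 74 lay above that median. A half-life of at least 8 h was found for 69 of the 74 in DMSO, while 4.04% of all transcripts reached it. Small-subunit transcripts had a median of 11.8 h and large-subunit transcripts of 10.6 h. The 10 members with a multimapping share under 10% had a median of 10.9 h, with a range from 5.00 to 14.2 h, and the other 64 of 11.2 h. Across the 74 members the DMSO half-life had a Spearman correlation of -0.02 with the multimapping share, of 0.17 with the mean CPM and, for 73 members with a transcript sequence, of -0.31 with transcript length, as a description over genes that share the same libraries.

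The decline of the label itself shows the same order without a fitted curve. After 12 h of chase a median of 46.3% of the 0 h conversion rate was left on the 74 member transcripts in DMSO and 3.10% on the other 7320 transcripts, after subtraction of the unlabelled rate. The course was not a smooth exponential. In DMSO the member median was 93.1% at 1 h, 86.8% at 1.5 h, 93.2% at 2.3 h and 88.8% at 3.5 h before it was 64.7% at 5.3 h and 59.8% at 8 h. The other transcripts passed from 59.2% to 14.2% between the same 3.5 and 5.3 h time points.

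**Figure D2:**
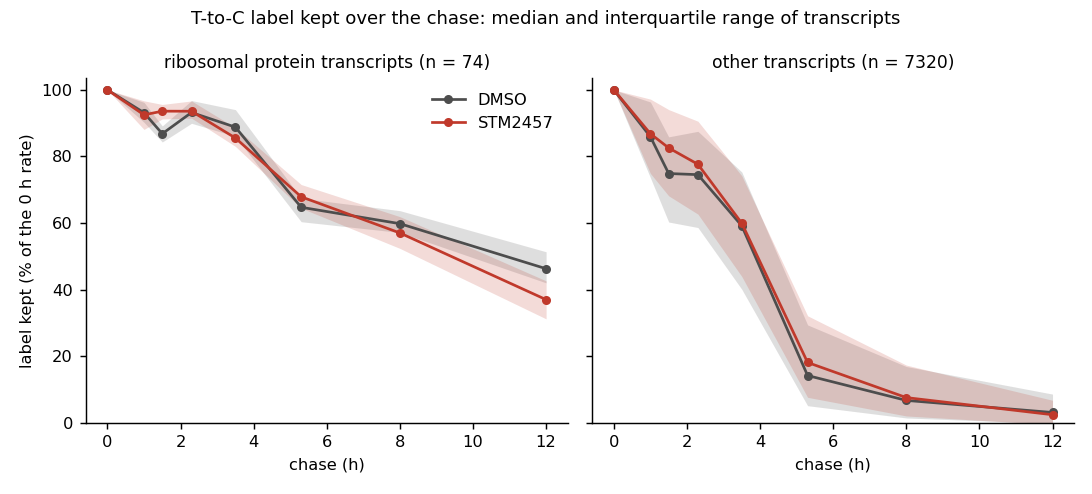
T-to-C conversion rate left on transcripts (y axis, percent of the 0 h rate after subtraction of the unlabelled rate) over the hours of chase (x axis), for 74 ribosomal protein transcripts (left) and 7320 other transcripts (right), with points at the median and bands over the interquartile range in DMSO (grey) and STM2457 (red). At 12 h the members kept a median of 46.3% in DMSO and 37.0% in STM2457, and the other transcripts 3.10% and 2.42%.

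The longest half-lives in DMSO belonged to Rpl23a, a large-subunit protein at the mouth of the exit tunnel, at 17.7 h, Rps12 of the small-subunit head at 16.6 h, and Rpl38 at 15.8 h. Their values lie close to the limit of 18 h above which a half-life was not accepted, and the 4 series of single replicates for Rpl23a gave 24.8, 16.2, 18.1 and 14.5 h in DMSO. Those of Rpl38 gave 49.02, 12.1, 14.95 and 11.9 h, so that 1 series lies far above the rest. At the other end were 3 paralogs. Rpl7l1, the paralog of Rpl7, decayed with 3.00 h in DMSO, with series of 2.74, 2.72, 3.59 and 2.97 h. Rps4l, an autosomal copy of Rps4x that is annotated as a pseudogene and had a multimapping share of 0.545%, had 5.00 h, and Rpl22l1, the paralog of Rpl22, had 5.69 h. Rpl7l1 was the only member below the median of all transcripts, and its 4 series do not reach those of any of the 3 longest members.

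A half-life in both treatments was missing for 8 genes. The fitted value exceeded 18 h in STM2457 for Rplp2 of the stalk, Rpl11 of the 5S ribonucleoprotein and Rps28, where that of Rps28 was 18.4 h against 15.2 h in DMSO. For Rpl14 it exceeded the limit in both treatments, and its unlabelled libraries had a conversion rate of 0.742% in DMSO, against 0.752% added by labelling at 0 h. The scatter around the curve was too large for Rpl10l, Rpl32l and Rpl39l, and the T coverage too low for Rpl3l.

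**Figure D3:**
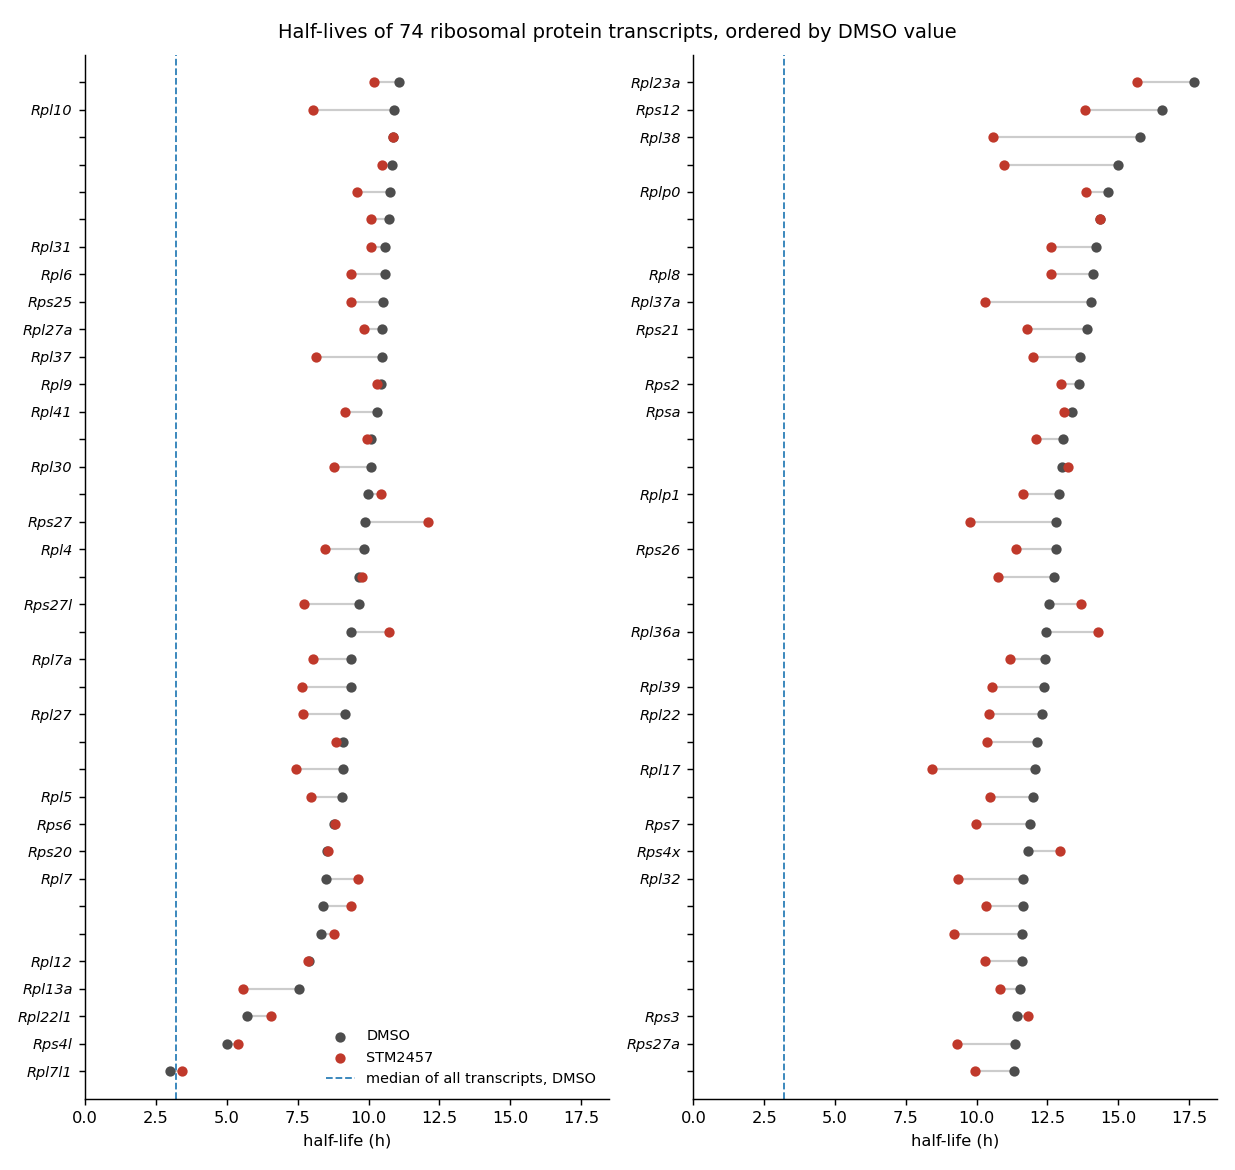
Half-life in hours (x axis) of the 74 ribosomal protein transcripts in DMSO (grey) and STM2457 (red), 1 point for each pooled fit, ordered by the DMSO value and labelled where the text names the gene; the dashed line marks the DMSO median of all transcripts at 3.19 h. All but Rpl7l1 lie to the right of that line in DMSO, and 55 of the 74 have the STM2457 point to the left of the DMSO point.

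In STM2457 the member transcripts kept their place above other transcripts, with somewhat shorter fitted half-lives. Their median was 10.1 h (range 3.42 to 15.7 h) in STM2457, against 3.45 h for all transcripts. The median log2 ratio of STM2457 over DMSO was -0.16 over the members, and 55 of 74 were shorter, whereas it was 0.07 over all transcripts, of which 43.3% were shorter and 56.7% longer. The ratios ranged from -0.58 for Rpl38 to 0.29 for Rps27. For Rpl38 the single series gave 49.02, 12.1, 14.95 and 11.9 h in DMSO and 9.98, 13.7, 7.43 and 13.3 h in STM2457, so that the groups overlap and 1 DMSO series lies far above the rest. Members with a multimapping share under 10% had a median ratio of -0.17, with 7 of 10 shorter, and the others of -0.16, with 48 of 64 shorter. The difference rested on the last time point: in fits without 12 h the median ratio was -0.01 and 38 of 73 members were shorter, with medians of 11.3 h in both treatments. Leaving out 1 replicate number of a treatment gave median ratios from -0.23 to -0.06 and 45 to 64 shorter members, where 51.3 to 58.9% of all transcripts were longer. Without the upper limit of 18 h, 56 members were shorter and 22 longer, where 56.7% of all transcripts were longer. The half-lives of the 2 treatments had a Spearman correlation of 0.81 over the 74 members.

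Fits to single replicate series put this difference beside its error. For the 55 members with a half-life in every one of the 8 series, the median was 11.6, 9.18, 11.3 and 10.4 h in the DMSO series (mean 10.6 ± 1.09 h, SD, n = 4) and 11.4, 10.2, 8.16 and 8.18 h in the STM2457 series (9.49 ± 1.60 h). The series of the 2 treatments overlap. With limma on log2 half-lives of 5761 transcripts, 0.0% of all were called at an adjusted p under 0.05 and 0 of the 55 members, none of which had an unadjusted p under 0.05, and the smallest adjusted p of a member was 0.721. On simulated data this design recovered 15% of transcripts changed by 2-fold and 64% of those changed by 4-fold, so that smaller differences were not detectable. For Rpl10, an X-linked member (chrX:74270812-74273135) whose protein completes the large subunit in the cytoplasm, the series gave 11.6, 10.1, 11.8 and 10.4 h in DMSO and 9.87, 7.47, 6.91 and 8.18 h in STM2457. It was the only member whose series did not overlap, where 1.74% of all transcripts did so in the shorter direction and 2.62% in the longer. The count of 1 became 8 without DMSO series 2, 10 without STM2457 series 1 and 2 without STM2457 series 2. Over all 5761 transcripts the count in the shorter direction was 100 with every series, and 225, 250 and 193 in these runs. The log2 difference of Rpl10 was -0.45 ± 0.22 (SE) with an adjusted p of 0.721 in limma.

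Conversion rates of single libraries gave a finer comparison at fixed times. At 0 h, after 6 h of inhibitor, no member differed. None of the 80 members tested was called by limma, and none had an unadjusted p under 0.05, where 0.0% of 10442 genes were called and 160 of them had an unadjusted p under 0.05. The median log2 difference of STM2457 minus DMSO was -0.04 over the members and -0.12 over all genes.

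At 12 h of chase 41 of the 80 members had a lower conversion rate in STM2457 and 2 a higher one, at an adjusted p under 0.05 in limma, where 8.11% of all genes tested were lower and 2.81% higher. On simulated counts this test called more unchanged genes than its threshold allows. Over 10442 genes it called 505 unchanged ones, beside 77 of 100 genes changed by 1.41-fold and 43 of 100 changed by 1.23-fold. Among 821 genes with at least 50 conversions it called 18 unchanged ones, beside 57 and 37 of 58. Over all genes the simulated calls were thus mostly false, and these shares may hold many false calls. The lower ones were 25 large-subunit and 16 small-subunit genes with log2 differences from -1.14 to -0.27. The median difference was -0.30 over the members and -0.13 over all genes, which leaves -0.17 relative to the shift of all genes, and 75 of 80 were below 0. For 36 members every STM2457 library lay under every DMSO library (3.78% of all genes) and for 2 every one lay over (1.15%). With each library centred on the median of all genes, 20 members were called lower, where 641 of all 10442 genes were. Leaving out 1 replicate number of a treatment at all times gave 26 to 42 members, where 671 to 828 of all genes tested were lower. It was 27 without DMSO replicate 3, 26 without DMSO replicate 4, 27 without STM2457 replicate 3 and 26 without STM2457 replicate 4.

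Among the members that read almost only at their own position, 7 of the 12 tested were lower at 12 h. Over all genes 8.11% were lower and 2.81% higher, and 57% were lower among the 737 genes with a mean of at least 50 conversions at 12 h. Both members called higher at 12 h, Rps4l and Rpl10l (multimapping share 2.67%), also read almost only at their own position. Rpl32, a large-subunit protein with a multimapping share of 1.2%, had rates of 0.582, 0.617, 0.614 and 0.674% of T positions in DMSO and of 0.445, 0.489, 0.445 and 0.448% in STM2457. The 2 groups do not overlap, on 1510 to 2271 conversions per library, and the log2 difference was -0.44 ± 0.08 (limma, adjusted p = 0.000109). Rpl4, which lines the exit tunnel (share 2.55%), fell by 0.44 on the log2 scale (limma, adjusted p = 0.000167), and Rpl37, Rps3, Rps20 and Rps26 were called lower by limma too, but not with centring. Rpl8 (share 3.73%), a protein of the peptidyl transferase centre, read 0.772, 0.820, 0.844 and 0.870% in DMSO and 0.801, 0.775, 0.664 and 0.752% in STM2457. Its groups overlap, with a log2 difference of -0.15 and an adjusted p of 0.235 in limma. Rpl13a, whose protein also represses translation in the GAIT complex, had a log2 difference of -0.14 with an adjusted p of 0.693.

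The largest decreases among all members were those of Rps27l, Rpl7a and Rpl30. Rps27l (chr9:66946086-66949516), a p53-induced paralog of Rps27 with a multimapping share of 12.2%, had rates at 12 h of 0.514, 0.730, 0.589 and 0.50% in DMSO and 0.354, 0.264, 0.223 and 0.223% in STM2457. Each STM2457 value is below each DMSO value, on 66 to 213 conversions per library, and the log2 difference was -1.14 ± 0.14 (limma, adjusted p = 2.43e-08). Its rates at 0 h, 1.52, 1.60, 1.47 and 1.59% in DMSO and 1.35, 1.68, 1.50 and 1.75% in STM2457, overlapped. Rpl7a (chr2:26910764-26913318, multimapping share 96.2%) read 0.577, 0.494, 0.526 and 0.578% in DMSO at 12 h and 0.365, 0.325, 0.306 and 0.348% in STM2457. The gap between its groups exceeds the range within either, with a log2 difference of -0.69 ± 0.09 (limma, adjusted p = 3.78e-08). Rpl30 had a difference of -0.60 ± 0.08 (limma, adjusted p = 3.66e-07).

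Rps4l (chr6:148354656-148355598) went the other way. Its rates at 12 h were 0.135, 0.142, 0.122 and 0.103% in DMSO and 0.180, 0.169, 0.242 and 0.183% in STM2457, with no overlap, a log2 difference of 0.62 ± 0.14 and an adjusted p of 0.00135 in limma. Its 0 h rates were 1.22, 1.36, 1.31 and 1.18% in DMSO and 1.07, 1.28, 1.16 and 1.18% in STM2457. The other higher member, Rpl10l, an autosomal retrogene of Rpl10 known from testis, had 0 conversions among 4618 covered T positions in the 4 DMSO libraries, which allows a rate of up to 0.0650%. In STM2457 it had 26 among 11342, 0.229%, which is 3.53 times that limit. The limit counts 3 conversions over the DMSO group and covers its counting error only, since the reads carry no molecular identifiers. The counting error of the 26 conversions is not included, so 3.53 is not a lower bound. The call is lost with pseudocount 1. Without the 2 members that had no conversion in DMSO at 12 h, Rpl10l and Rpl32l, the median over 78 members was -0.30.

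The decline from 0 h to 12 h itself was compared between treatments with an interaction term. It was steeper in STM2457 for 8 members and less steep for 1, where limma called 1.6% of all genes steeper and 0.575% less steep. The steeper ones were Rps27l at -1.15, Rpl7a at -0.61, Rpl30 at -0.52, Rpl10 at -0.50, Rpl6 at -0.47, Rpl27 at -0.44, Rpl32 at -0.42 and Rpl4 at -0.41 (log2, STM2457 minus DMSO), and Rps4l at 0.73 was less steep. The median of this term was -0.25 over the members and -0.02 over all genes. The counts depended on the replicates: 3 members were steeper without DMSO replicate 1 or 3 or STM2457 replicate 2 or 3, and 4 without DMSO or STM2457 replicate 4. In these runs 90 to 114 of all genes tested were steeper, against 167 in the full data. Rps4l was called only in the full data and without STM2457 replicate 2. Rpl10 read 1.12, 1.22, 1.19 and 1.23% in DMSO and 1.07, 1.25, 1.31 and 1.13% in STM2457 at 0 h, and 0.560, 0.528, 0.592 and 0.568% against 0.435, 0.407, 0.391 and 0.358% at 12 h. Its groups overlap at the start and are apart at the end, with an adjusted p of 0.0138 for the term in limma, lost without DMSO replicate 1 or 3 or STM2457 replicate 2, 3 or 4.

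These calls need the depth of the family beside them. Because members kept label and had many reads, their rates at 12 h rested on more conversions than those of most genes. Among 737 genes with a mean of at least 50 conversions per library at 12 h, which include 75 members, limma called 57% of all genes lower and 4.48% higher, and of the members 56 lower and 1 higher. The median log2 difference was -0.31 over these members and -0.35 over all 737 genes. The interaction term gave 29 members steeper and 1 less steep, where 33.4% and 2.99% of these genes were called, and medians of -0.27 and -0.28. Transcripts of like half-life had medians close to those of the members. For 69 members and 141 other transcripts with a geometric mean half-life of at least 8 h over both treatments, the median log2 half-life ratio was -0.17 in both sets, with 76.8% of the members and 68.8% of the others shorter. The median log2 rate difference at 12 h was -0.33 for these members and -0.37 for the others, with 59.4% of these members and 35.5% of the others called lower. The other transcripts include Rpl37rt and Rps12-ps3, which are named after members, and translation factor genes such as Eef1a1, Eef1g and Eif3f. They are therefore not a set wholly separate from the family. The difference between the sets was not tested.

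**Figure D4:**
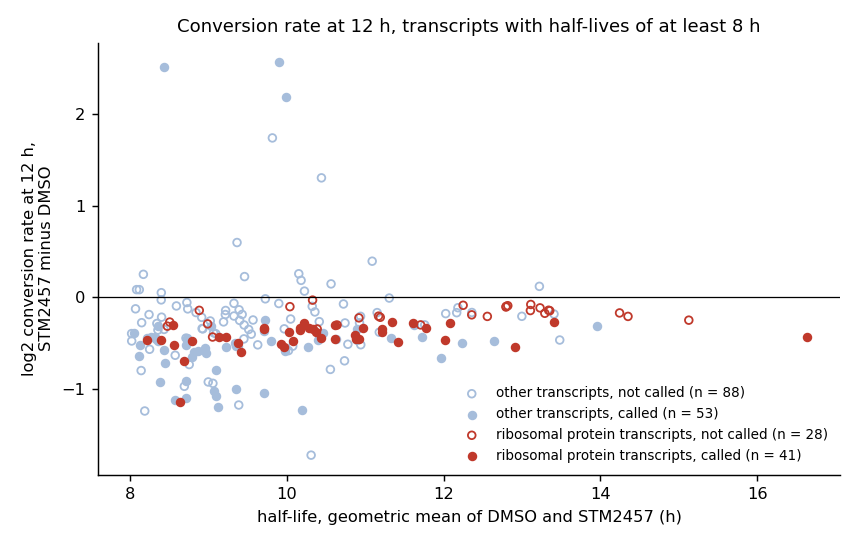
Log2 difference in conversion rate at 12 h of chase, STM2457 minus DMSO (y axis), against the geometric mean of the half-lives in both treatments (x axis, h), for transcripts with a mean of at least 8 h; red circles are 69 ribosomal protein transcripts, blue circles 141 others, filled where limma called the difference. All 69 members lie below 0, from -1.14 to -0.03, and the others run from -1.72 to 2.56, with medians of -0.33 and -0.37.

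Gene sets with related roles were described beside the family. Other messenger RNAs known to carry a TOP tract (19 genes, such as translation elongation factors) had medians of 8.4 h (DMSO) and 7.34 h (STM2457), and 13 of 19 had a lower conversion rate at 12 h in STM2457, with a median log2 difference of -0.46. Ribosome biogenesis factors had a median half-life of 3.83 h under either treatment, and of 49 tested 5 were lower and 3 higher at 12 h, with a median of -0.03. Mitochondrial ribosomal protein genes had medians of 4.23 and 4.40 h, and of 76 tested 13 were lower and 7 higher, with a median of 0.03. Over all genes 8.11% were lower and 2.81% higher at 12 h, with a median of -0.13. Among the 737 genes with a mean of at least 50 conversions at 12 h, 57% were lower, with a median of -0.35. By half-life and by the direction at 12 h the other TOP messenger RNAs lay nearer to the cytosolic ribosomal protein genes than the other 2 sets did, as a description of these medians. Whether this exceeds what long-lived, deeply read transcripts show was not tested.

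The members were also followed by their position in the ribosome, without a test between positions. Of the stalk, Rplp0 decayed with 14.6 h (DMSO) and 13.9 h (STM2457), and Rplp1 of 12.9 and 11.6 h, and neither was called at 12 h. Rpl5, which with Rpl11 carries the 5S RNA into the ribosome, had 9.06 and 7.98 h. Rpsa, known also as a laminin receptor precursor, had 13.4 and 13.1 h, and Rps27a, made as a fusion with ubiquitin, 11.4 and 9.29 h. The 9 proteins around the exit tunnel had medians of 12.1 and 10.5 h and 6 of 9 were lower at 12 h, with a median log2 rate difference of -0.42. Of the small-subunit head, 12 of 13 proteins had a half-life, with medians of 12.9 and 11.9 h, and 5 of 13 were lower, with a median difference of -0.25. The 5 near the peptidyl transferase side had 10.5 and 9.85 h with 2 of 5 lower and a median of -0.15, and the stalk had a median of -0.17 with 0 of 3 lower. These counts stand against 41 of the 80 members, 8.11% of all genes, and 57% of the 737 genes with a mean of at least 50 conversions at 12 h. The 4 X-linked members went both ways: Rpl10 had 10.9 h in DMSO and 8.05 h in STM2457, Rpl39 12.4 and 10.5 h, Rps4x 11.8 and 12.9 h, and Rpl36a 12.4 and 14.3 h. Their series overlapped for Rpl39, Rps4x and Rpl36a, the last with STM2457 series of 38.4, 26.6, 8.54 and 9.98 h.

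Sequences for m6A were scarce on these short transcripts. Among transcripts with a half-life and a sequence, 73 members had a median of 3 GGAC motifs on the sense strand of a median length of 886 bases, 3.31 per kilobase, and 7164 others had 12 on 2998 bases, 4.08 per kilobase. No GGAC was found in 3 members (4.11%) and in 0.279% of the others. The number of motifs had a Spearman correlation of 0.09 with the log2 half-life ratio over the 73 members, as a description. A motif is not a measured m6A site.

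Read counts of the family declined over the chase in both treatments. From 0 h to 12 h, 49 of 82 members fell in DMSO and none rose, where edgeR called 8.2% of all genes lower and 4.84% higher, at an adjusted p under 0.01. In STM2457 32 fell and none rose, where 3.03% of all genes were lower and 1.69% higher. The median log2 change was -0.40 in each treatment over the members, against 0.04 in DMSO and -0.001 in STM2457 over all genes, and 29 genes fell in both. The share of the family in all counted reads moved from 18.05 ± 0.673% (SD, n = 4) at 0 h to 16 ± 0.444% at 12 h in DMSO and from 18.3 ± 0.796% to 15.8 ± 0.889% in STM2457. These are relative levels, and the hours of chase, of further growth towards confluence and of treatment cannot be told apart. The TMM factors of edgeR moved every gene by -0.14 in DMSO and -0.12 in STM2457 relative to CPM. Scaled to library totals alone, 29 members fell in DMSO and 18 in STM2457 and none rose, with medians of -0.26 and -0.29 over the members and 0.18 and 0.12 over all genes. With reads at 1 position only, 31 members fell in DMSO and 13 in STM2457. Without DMSO replicate 1 the count in DMSO was 32, and in STM2457 it was 9, 13 and 19 without replicates 1, 2 and 3. The difference between treatments was called for 0 members by edgeR, with 7 at an unadjusted p under 0.05, and for 1 by DESeq2, where edgeR called 0.916% of all genes relatively higher in STM2457 and 0.19% lower.

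Among members read at a single position, Rpl4 had 6095, 5120, 4040 and 4387 CPM at 0 h and 3201, 3120, 2788 and 2646 CPM at 12 h in DMSO. No library at 12 h came up to those at 0 h, and the log2 change was -0.88 ± 0.18 (edgeR, adjusted p = 0.000162), with -0.74 ± 0.18 in STM2457 (edgeR, adjusted p = 0.00344). The call in STM2457 was lost when counts were scaled to library totals (edgeR, adjusted p = 0.0175). Some members of the family, such as Rps2, Rplp1 and Rpl41 in DMSO, were not called. Rps2, which had the smallest spread between replicates of the family, had 2517, 2602, 2495 and 2518 CPM at 0 h in DMSO and 2588, 2641, 2662 and 2512 CPM at 12 h, with a log2 change of -0.10 (edgeR, adjusted p = 0.241). The sign differs from that of the CPM because edgeR's values carry the TMM scaling, and with library totals the change was 0.04 (edgeR, adjusted p = 0.671). Rplp1 and Rpl41 had changes of -0.04 and 0.00 in DMSO, with adjusted p of 0.825 and 0.999 in edgeR, and of 0.10 and 0.14 with library totals.

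Part of this variation was shared between libraries of the same group. The within-group SD of log2 CPM over 78 members with at least 50 CPM ranged from 0.0555 for Rps2 to 0.493, with a median of 0.164. Rpl11 (chr4:136028265-136053428, SD 0.388) was among the most variable, and 14 other members deviated from their group means together with it, at a correlation above 0.8 over the 71 libraries: Rpl12, Rpl17, Rpl23a, Rpl31, Rpl36a, Rpl37a, Rpl9, Rps12, Rps21, Rps25, Rps27, Rps3, Rps7 and Rpsa. This set was drawn after its values were seen and is given without a test. The members that deviated most strongly the opposite way from Rpl11 were Rps14 at -0.83, Rpl41 at -0.74, Rps16 at -0.71, Rps4l at -0.69, Rpl27a at -0.67 and Rplp1 at -0.66. From 0 h to 12 h in DMSO they changed, in this order, by 0.09, 0.00, -0.03, -0.18, 0.06 and -0.04 on the log2 scale. At 0 h Rpl11 read 256, 191, 119 and 144 CPM in DMSO and 146, 157, 112 and 91.2 CPM in STM2457, and at 12 h 75.1, 93.4, 78.3 and 71.2 CPM and 99.9, 58.4, 71.6 and 63.9 CPM. The levels of both treatments were low from 2.3 to 3.5 h and from 8 h on. From 0 h to 12 h the 15 genes changed by a median of -0.78 in DMSO and -0.63 in STM2457, against -0.38 in each for the other 63, and 13 of the 15 and 35 of the 63 fell in DMSO. The part of this shared variation in the decline over the chase was not tested.

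**Figure D5:**
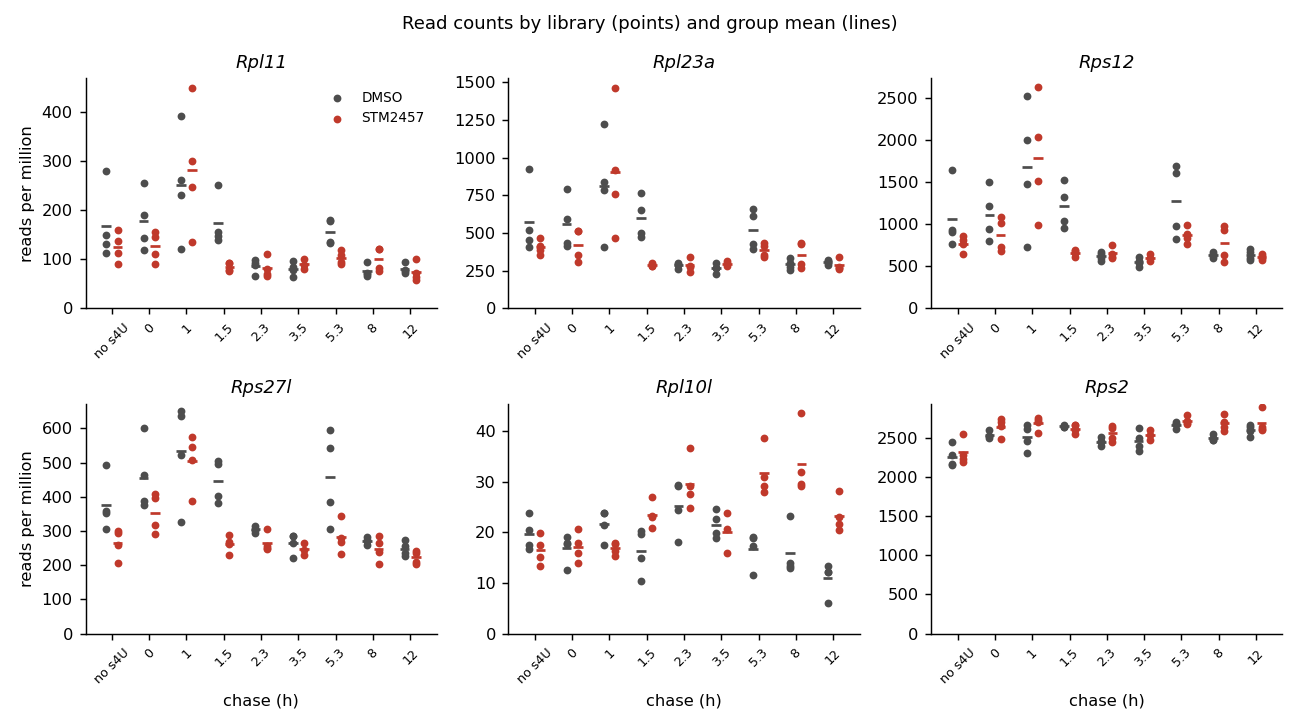
Read counts in CPM (y axes, each from 0) of 6 ribosomal protein genes in every library, against the condition from no s4U to 12 h of chase (x axes), in DMSO (grey) and STM2457 (red), with points for libraries and lines for group means. Rpl11, Rpl23a, Rps12 and Rps27l spread widely between replicates at 0, 1, 1.5 and 5.3 h in DMSO, Rpl10l is higher in STM2457 from 5.3 h on, and Rps2 stays between 2159 and 2897 CPM.

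Few members had a read count that was called different between STM2457 and DMSO at the same time. On simulated counts at 12 h edgeR recovered 66% of genes changed by 2-fold and 18% of those changed by 1.5-fold. A member that was not called may therefore still differ. At 0 h, 2.3 h and 3.5 h no member was called by edgeR, with 5, 2 and 1 at an unadjusted p under 0.05, and none by DESeq2, where edgeR called 1.27, 1.26 and 1.04% of all genes higher and 0.411, 0.348 and 0.253% lower. At 12 h Rpl10l alone was higher (3.85% of all genes higher, 1.56% lower), and at 8 h it was again the only one (1.79% higher, 0.553% lower). At 5.3 h Rpl10l and Rplp0 were higher and Rpl22l1 and Rps27l lower (2.46% and 1.98% of all genes). Rps4l was lower at 1 h (0.419% of all genes lower, 1.11% higher) and Rpl13a without s4U (0.845% lower, 1.73% higher).

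Rpl10l was called higher at each of the last 3 times. Its levels were 12.1, 5.99, 12.1 and 13.4 CPM in DMSO at 12 h and 22.9, 21.6, 20.4 and 28.2 CPM in STM2457. The groups do not overlap, and the log2 difference was 1.13 ± 0.21 (edgeR, adjusted p = 7.39e-05). At 8 h they were 13.9, 13, 23.3 and 13.3 CPM against 31.9, 29.5, 43.5 and 29.1 CPM, a difference of 1.09 ± 0.21 (edgeR, adjusted p = 0.000186), and at 5.3 h of 0.95 ± 0.21. At 0 h, with 17.9, 12.6, 18.97 and 17.8 CPM in DMSO and 13.99, 17.8, 15.99 and 20.6 CPM in STM2457, the groups overlap. Its parent Rpl10, at a mean of 2976 CPM in DMSO and 2959 CPM in STM2457, was not called at any time.

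At 1.5 h 10 members were lower in STM2457 and 2 higher, where edgeR called 4.02% of all genes lower and 4.16% higher. The lower ones were Rpl11, Rpl12, Rpl13a, Rpl23a, Rpl36a, Rpl37a, Rpl9, Rps12, Rps27l and Rps28, of which 7 belong to the 15 that vary together. Rpl23a had 471, 764, 501 and 653 CPM in DMSO and 303, 279, 293 and 280 CPM in STM2457, a log2 difference of -0.996 ± 0.217 (edgeR, adjusted p = 0.000753). Rps27l had 403, 505, 383 and 497 CPM against 290, 267, 230 and 261 CPM, a difference of -0.72 ± 0.16 (edgeR, adjusted p = 0.000633). In both genes the DMSO libraries were as high as at 0 h while the STM2457 libraries were near the level of 2.3 h. Rplp1 was higher at 8336, 7279, 8644 and 7664 CPM in DMSO and 10229, 10536, 10428 and 9851 CPM in STM2457, a difference of 0.41 ± 0.11 (edgeR, adjusted p = 0.00596), and Rpl27a by 0.44 ± 0.11. Rplp1 and Rpl27a are among the members that deviated the opposite way from Rpl11 within groups. The count of 10 was 18 without DMSO replicate 1, 2 without DMSO replicate 2, 4 without DMSO replicate 4, and 5, 2, 4 and 5 without STM2457 replicates 1 to 4, and 29 when the fit held the libraries of 1.5 h alone.

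Few calls came with the labelling itself. Between libraries without s4U and those at 0 h, Rpl22l1 (multimapping share 68.8%) was the only member called, lower after labelling in both treatments, where edgeR called 0.213% of all genes lower and 0.3% higher in DMSO and 0.253% and 0.269% in STM2457. It read 683, 683, 618 and 772 CPM without s4U and 400, 369, 381 and 378 CPM at 0 h in DMSO, a log2 change of -0.90 ± 0.10 (edgeR, adjusted p = 9.18e-09). In STM2457 it went from 524, 573, 630 and 659 CPM to 464, 418, 356 and 317 CPM, a change of -0.66 ± 0.10 (edgeR, adjusted p = 4.08e-05). No labelled library of either treatment at 0 h came up to the lowest unlabelled one. With reads at 1 position only, the call was lost in STM2457. At 5.3 h it was lower in STM2457, with 490, 583, 613 and 638 CPM in DMSO against 423, 443, 381 and 389 CPM, a difference of -0.47 ± 0.10 (edgeR, adjusted p = 0.00117), a call lost without DMSO replicate 3 or 4.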

How the data were processed

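SLAM-seq libraries of the 3′ ends of messenger RNA from mESC were made without molecular identifiers, as far as the sources state. The authors mapped reads with SLAM-DUNK to GRCm38.p6, allowing several positions per read, checked them with FastQC 0.11.8, masked variants seen in unlabelled libraries and counted on 3′ UTR windows. They deposited raw counts per gene and library of reads, multimapping reads, covered T positions and T-to-C conversions, and the conversion rate as a fraction. CPM values in the files were also deposited by the authors but not used. CPM in the text were computed here from the read counts and the library totals. The labels number the time points, and the hours of chase were taken from the study's description of the experiment, groups and replicate numbers from the labels. Members and gene lists were chosen with earlier results of these data known. Gene positions come from GENCODE M21 and starts from RefSeq (GRCm38.p6), and some known family members are not analysed here.

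For half-lives, rates were averaged over replicates, the unlabelled mean of the treatment was taken off, and first-order decay from a fixed start of 1 was fitted. Transcripts were kept when, under either treatment, more than 100 T positions were covered on average, the residual standard error did not exceed 0.3 and the half-life was neither under 0.67 h nor over 18 h. Series of single replicates were fitted alike and compared with limma 3.58.1. Rates were tested with limma on log2 of (conversions + 0.5) over (covered T + 1), and counts with edgeR 4.0.16 (quasi-likelihood, TMM, filtered at a minimum count of 10) over all 71 libraries, with Benjamini-Hochberg adjustment over all genes. DESeq2 1.42.0 was an alternative. Python 3.11.15 and R 4.3.3 were used.

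Genes were named by rule: the 5 with the most reads, the 3 longest and 3 shortest half-lives, the 3 largest changes called by edgeR at 0 h and 12 h in each direction, those whose series did not overlap, the members with a multimapping share under 10% and a half-life, X-linked members, the stalk, the 5S proteins, Rpsa, Rps27a and paralogs. Others were named after their values were seen. Tests were run on simulated data. There edgeR made no false call between treatments at 12 h. It recovered 66% of genes changed by 2-fold and 18% of those changed by 1.5-fold. Limma on rates made more false calls than its threshold allows, fewer among genes with at least 50 conversions. Alternatives covered the normalization (library totals without TMM added after seeing the data), filters, pseudocount, thresholds, background, unique reads, time points, the replicate block and each replicate left out. Some genes that the rule names are not reported here.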

Additional observations from a re-analysis of the deposited data

Results flagged for a closer look

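In 105 groups of 4 libraries or series, 11 held a value apart from the other 3, where chance gives about 1 in 20 groups. The multimapping share of the family's reads stood apart at 66.85% in DMSO at 0 h, 65.63% in STM2457 at 5.3 h and 66.49% in DMSO at 12 h, and its conversion rate at 0.06761% in STM2457 without s4U and 1.046% in DMSO at 2.3 h. Among half-lives of single series, those apart were 17.95 h for Rps4x, 49.02 h for Rpl38, 4.273 h for Rps4l and 9.631 h for Rps3 in DMSO, and 10.89 h for Rps20 and 8.716 h for Rpl5 in STM2457.

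The change of the conversion rate from 0 h to 12 h differed between treatments by the interaction term of limma, on the log2 scale as STM2457 minus DMSO, for Rps27l (-1.153), Rpl7a (-0.6062), Rpl30 (-0.5208), Rpl10 (-0.5009), Rpl6 (-0.4703), Rpl27 (-0.44), Rpl32 (-0.4239), Rpl4 (-0.4122) and Rps4l (0.7317). Among genes with at least 50 conversions at 12 h such a term was called lower for 33.4% of all genes.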

How the results depend on the processing

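For the single genes followed through the alternative runs, no called result turned its direction. The direction of other called members was not compared between runs. At an adjusted p under 0.05 edgeR called 32 decreases and 16 increases in STM2457 summed over the 9 conditions, 22 decreases at 1.5 h and 1 difference of the chase between treatments, as did DESeq2 (1). With only the libraries compared these were 32, 14 and 29. With reads at 1 position, 31 members fell over the chase in DMSO and 13 in STM2457, between no s4U and 0 h 1 rose in DMSO and 0 fell in STM2457, and the family held 8.12% of reads. At 12 h, 1 rate was higher with pseudocount 1 or with at least 50 conversions, and 20 were lower with centring. The decline was steeper for 4 members with pseudocount 1, 14 with the unlabelled rate subtracted and 29 with at least 50 conversions, a setting chosen after seeing the data. These settings called 135, 430 and 246 of all genes tested steeper. Scaled to library totals, likewise chosen after seeing the data, 29 members fell over the chase in DMSO and 18 in STM2457. Without 3.5 h, 3 members had shorter series without overlap, as had 88 of all 5871 transcripts. Leaving out replicates gave 4 to 33 decreases and 2 to 15 increases over the conditions, 2 to 18 decreases at 1.5 h, 32 to 52 and 9 to 37 over the chase in DMSO and STM2457, 1 to 10 shorter and 0 to 1 longer series, 26 to 42 lower rates at 12 h, and 3 to 9 steeper and 0 to 1 less steep declines. The causes were not tested. Over all alternatives the family's DMSO median stayed within 10.6 to 11.7 h.

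Same-numbered libraries deviated together in read counts at 0 h, where all 4 pairs correlated at 0.12 to 0.24, but at no other condition did every pair exceed 0.1, with means of -0.12 to 0.10, and those of half-lives averaged 0.01. At 0 h the treatments differed for 0 members with or without the number as a block. With the number as a replicate block, 45 rates in place of 41 were lower at 12 h, 10 declines in place of 8 were steeper, and 10 members were lower at 1.5 h, as without it. Depth limits Rpl10l, Rpl32l, Rpl39l and Rpl3l, with means under 50 CPM.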
